A study of Mus musculus with 23 samples.

Results

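The genes described here are 6 matrix metalloproteinases, Mmp2, Mmp3, Mmp9, Mmp11, Mmp13 and Mmp14, and the 4 tissue inhibitors of metalloproteinases, Timp1, Timp2, Timp3 and Timp4. They are given by name and make up 10 of the 35576 genes in the table. All 10 were found in the annotation by symbol, each with 1 Ensembl gene identifier. Transcript abundance was measured by RNA sequencing in 23 libraries from intracranial tumors of GL261 and CT2A, mouse glioma lines that were both induced with methylcholanthrene and grow in C57BL/6 mice.

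Whole (bulk) tumors came from GL261-luc2 and CT2A-luc cells, which carry a luciferase, with 4 libraries per line. They had been implanted in the right striatum of female albino C57BL/6 mice aged 7 to 10 weeks and harvested on day 22 to 24. Sorted cells came from tumors of a subline of GL261 (4 libraries) and a subline of CT2A (3 libraries). Tumor cells were pulled out of the dissociated tumor with magnetic beads. Both sublines also carry a luciferase, and the study's methods describe the same kind of mice and the same implantation site for them. More cells were implanted for GL261-luc2 than for CT2A-luc, and a still higher number, the same for each, for the sublines. In bulk tumors the number of implanted cells therefore cannot be told apart from the line. The last pair of groups, called neurosphere-derived here, held sorted cells of the same sublines after culture as neurospheres, that is as floating spheres in place of an adherent layer, with 3 GL261 and 5 CT2A libraries. The study's methods place that culture before implantation, whereas the labels can be read as culture of the tumor itself. The titles of all 5 CT2A neurosphere-derived libraries name a GL261 subline, while their cell line and description fields name CT2A, and they were grouped by the latter. In the tests given below, 0.167% of genes passed between these libraries and CT2A sorted cells. Between them and GL261 neurosphere-derived cells 59.6% passed. No treatment is named in any group, and each line is 1 line, so a difference between lines carries no replication over tumors of separate origin.

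The 4 GL261 bulk libraries held 34622622 to 42608400 reads assigned to genes, and the other 19 held 7395846 to 15263587. Bulk libraries were read with paired 150-base reads and sorted ones with paired 37-base reads, so sequencing and tissue preparation cannot be told apart in comparisons between them. The 4 CT2A bulk libraries held 9590096 to 9853530 reads, so depth and line cannot be told apart between bulk tumors. Marker lists of other cell types showed that libraries of 1 group differed in their content. Within GL261 bulk tumors, replicate 412 had the highest and replicate 405 the lowest summed CPM of neuron markers (reads per 1000000 after normalization) (3871 against 335), and the same order held for the astrocyte and oligodendrocyte lists. Macrophage and microglia markers were found in every sorted library, from 195 CPM in GL261 sorted replicate 81 to 7800.0 CPM in the GL261 neurosphere-derived group. The sorted libraries are therefore described as bead-selected cells, not as pure tumor cells.

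Matrix metalloproteinases are zinc-dependent endopeptidases that are made as inactive proenzymes and cleave collagens, proteoglycans, basement membrane proteins and many growth factors and receptors at the cell surface. Most are secreted, while Mmp14 is held in the plasma membrane. The tissue inhibitors bind the active site of the proteases one to one, and Timp2 also takes part in bringing proMMP2 to Mmp14, which activates it. In glioma these proteases are known for their part in the breakdown of brain matrix at the invading edge and around vessels. Transcript levels, which are what was measured, say nothing of the activation of the proenzyme.

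Per transcript length, on the TPM scale of Salmon, Mmp14 held the largest share of the summed TPM of the 6 proteases in 5 of the 6 groups, from 41.3 ± 5.83% (SD, n = 4) in GL261 bulk tumors to 65.9 ± 2.73% (n = 3) in CT2A sorted cells. In GL261 sorted cells Mmp2 held 46 ± 9.91% and Mmp14 39.4 ± 8.69% (n = 4), and in GL261 neurosphere-derived cells Mmp14 held 44.4 ± 6.9% and Mmp13 42 ± 6.55% (n = 3), pairs that did not differ beyond their spread. Among the inhibitors Timp1 held the largest share in GL261 bulk tumors (58.1 ± 22%, n = 4) and GL261 sorted cells (60.4 ± 5.25%), whereas Timp2 held the largest share in the 3 CT2A groups, from 59.7 ± 1.9% to 74.3 ± 3.76%. Mmp3 and Timp4 were the lowest of their families by TPM in GL261 sorted cells, at 0.104 ± 0.124 and 1.2 ± 0.870 TPM (SD, n = 4).

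**Figure D1:**
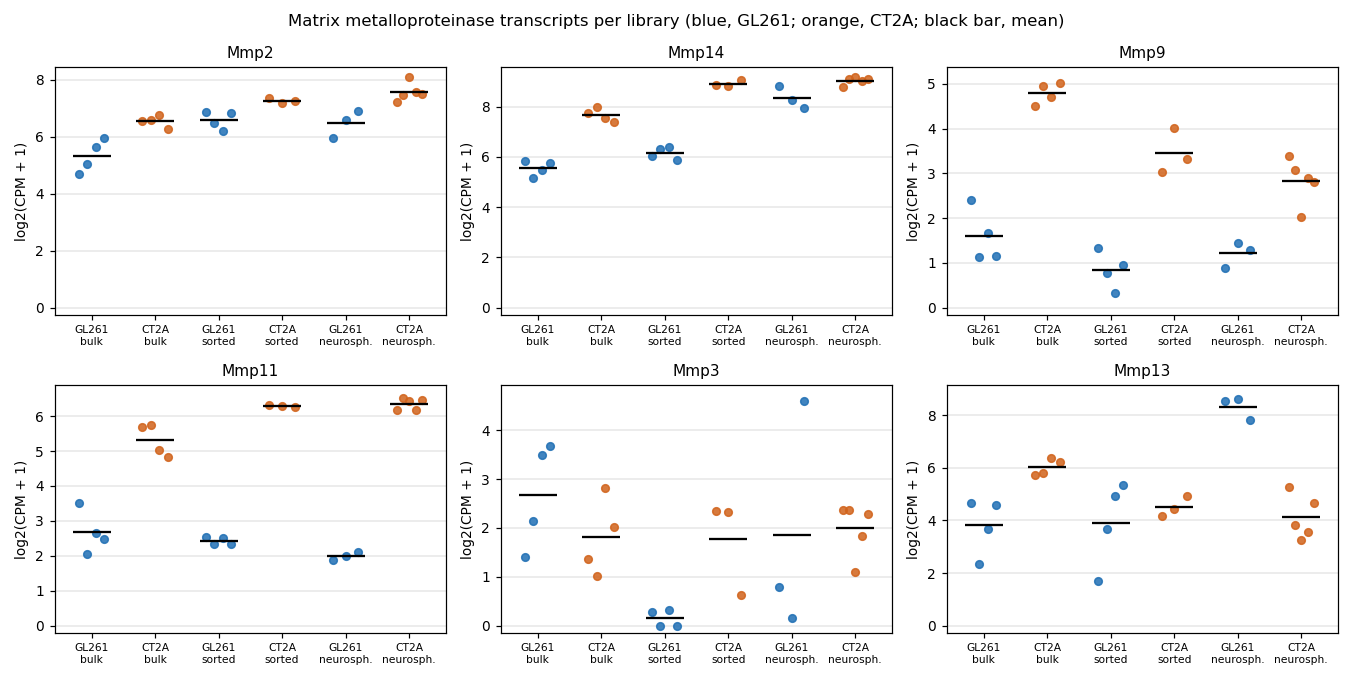
CPM of the 6 proteases as log2(CPM + 1), with 1 point per library and a bar at each group mean, for the 6 groups of 3 to 5 libraries. Mmp11 and Mmp14 are higher in CT2A bulk and sorted libraries than in those of GL261, and Mmp13 stands highest in the 3 GL261 neurosphere-derived libraries.

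The first question the design poses is how the lines differ, and it can be asked in bulk tumors, in sorted cells and in neurosphere-derived cells. All log2 fold changes in these comparisons are CT2A over GL261, given with their standard error, and a gene was called where its adjusted p was under 0.05 in edgeR's quasi-likelihood test over all genes. In bulk tumors Mmp2, Mmp9, Mmp11, Mmp13 and Mmp14 were higher in CT2A, 5 of the 10 members, and 0 were lower, where 11.4% of the 16434 genes tested were higher and 11.9% lower, 23.4% in all. In sorted cells 6 members were higher, Mmp2, Mmp3, Mmp9, Mmp11, Mmp14 and Timp2, and 1, Timp1, was lower, where 24% and 26.8% of the 13789 genes tested were called in these directions, 50.8% in all. In neurosphere-derived cells 5 members were higher (Mmp2, Mmp9, Mmp11, Mmp14 and Timp2) and 3 lower (Mmp13, Timp1 and Timp4), where 30% and 29.6% of 13733 genes were called, 59.6% in all. The median log2 fold change of the members was 0.93 in bulk tumors, 1.66 in sorted cells and 0.31 in neurosphere-derived cells, beside -0.05, -0.01 and 0.03 for all genes tested. Mmp2, Mmp9, Mmp11 and Mmp14 were called higher in CT2A in all 3 settings. The share of all genes called higher in all 3 was not counted. It cannot be had from the single shares, because the settings compare the same lines.

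**Figure D2:**
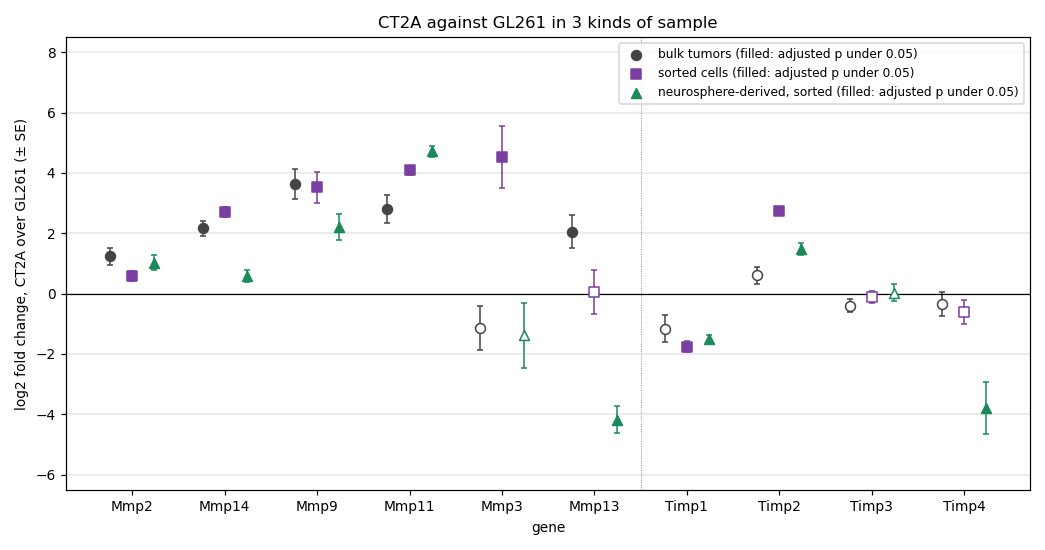
Log2 fold change of CT2A over GL261 for each member in bulk tumors, sorted cells and neurosphere-derived cells, with bars for 1 standard error. Mmp11 lies between 2.82 and 4.71 in the 3 settings, whereas Mmp13 goes from 2.06 in bulk tumors to -4.17 in neurosphere-derived cells.

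Mmp14 (ENSMUSG00000000957, GRCm38 chromosome 14, 54431612 to 54445364, plus strand) encodes the membrane-anchored protease MT1-MMP, which cleaves fibrillar collagen and activates proMMP2 at the cell surface. In bulk tumors it stood at 56.6, 34.7, 44 and 53.2 CPM in the 4 GL261 libraries and at 210.3, 252, 187 and 165 CPM in the 4 CT2A libraries. Every CT2A tumor was above every GL261 tumor, with a log2 fold change of 2.17 ± 0.25 (adjusted p = 9.51e-04). Sorted cells held 64.4, 77.3, 83.2 and 57.8 CPM in GL261 and 465, 449.9 and 532 CPM in CT2A, again without overlap, with a log2 fold change of 2.72 ± 0.16 (adjusted p = 6.25e-06). Neurosphere-derived cells had 455, 307 and 247 CPM in GL261 and 434, 543, 573, 512 and 552 CPM in CT2A, and the highest GL261 library lay within the CT2A range. CT2A over GL261 was 0.59 ± 0.19 (adjusted p = 0.0229) on the log2 scale there, and it was 0.53 (adjusted p = 0.0934) without GL261 replicate 90 and 0.41 (adjusted p = 0.0979) without replicate 91, with adjusted p from 0.0025 to 0.0979 over its 14 alternatives.

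Mmp2 (ENSMUSG00000031740, chromosome 8, 92827291 to 92853420, plus strand), gelatinase A, degrades denatured collagen and type IV collagen of basement membranes. GL261 bulk tumors held 24.6, 32, 49.3 and 61 CPM and CT2A bulk tumors 94.2, 94.3, 107 and 76.7 CPM. The lowest CT2A tumor was above the highest GL261 tumor, and the log2 fold change was 1.24 ± 0.28 (adjusted p = 0.0149). Without CT2A replicate 39 it was 1.17 (adjusted p = 0.058), with adjusted p from 4.80e-04 to 0.058 over its 16 alternatives. In sorted cells the values were 116, 89.5, 72.9 and 113 CPM for GL261 and 162, 146 and 152 CPM for CT2A, groups that did not overlap, and the log2 fold change was 0.60 ± 0.17 (adjusted p = 0.0189). That call was lost without GL261 replicate 82, at 0.55 (adjusted p = 0.0524), without CT2A replicate 69, at 0.55 (adjusted p = 0.0693), and in 1 fit of all 6 groups, at 0.58, adjusted p = 0.0766, with adjusted p from 0.00302 to 0.0766 over its 14 alternatives. Neurosphere-derived cells had 61.5, 95.2 and 120.2 CPM in GL261 and 149, 178, 273, 189 and 181 CPM in CT2A, where all 5 CT2A libraries were higher than all 3 of GL261, with a log2 fold change of 1.02 ± 0.25 (adjusted p = 0.00495).

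Mmp9 (ENSMUSG00000017737, chromosome 2, 164940780 to 164955850, plus strand), gelatinase B, shares its main substrates with Mmp2 and is also made by neutrophils and macrophages. In bulk tumors it was at 4.33, 1.2, 2.19 and 1.23 CPM in GL261 and 21.8, 30.1, 25.3 and 31.6 CPM in CT2A, where the lowest CT2A tumor was several times the highest GL261 tumor. The log2 fold change of 3.62 ± 0.49 (adjusted p = 0.0018) was the largest of the members in bulk tumors. In sorted cells the values were low, 1.52, 0.701, 0.248 and 0.939 CPM in GL261 and 7.19, 15.1 and 8.98 CPM in CT2A, and rested on 33 reads in the 4 GL261 libraries together and 272 reads in the 3 CT2A libraries. The groups did not overlap and the log2 fold change was 3.53 ± 0.52 (adjusted p = 6.38e-04). In neurosphere-derived cells GL261 held 0.850, 1.73 and 1.46 CPM and CT2A 9.47, 7.4, 3.06, 6.47 and 6.06 CPM, again apart, with a log2 fold change of 2.21 ± 0.43 (adjusted p = 0.00148). Neutrophil markers summed to at most 57.7 CPM in any library. That library, CT2A sorted replicate 70, also held the highest Mmp9 of the sorted cells. By group the neutrophil sums were 16.9 to 22.3 CPM in GL261 and 11.5 to 21.2 CPM in CT2A bulk tumors. In sorted cells they were 3.36 to 23.1 and 11.9 to 57.7 CPM. Neurosphere-derived cells had 41.2 to 47.7 CPM in GL261, where Mmp9 was low, and 10.2 to 28.5 CPM in CT2A. Macrophage and microglia markers summed to 826 to 1189 CPM in GL261 and 703 to 1183 CPM in CT2A bulk tumors. The sums were 195 to 1062 and 753 to 1456 CPM in sorted cells. In neurosphere-derived cells they were 4804 to 7800 and 545 to 2585 CPM. The part of these cells in the Mmp9 levels was not tested.

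Mmp11 (ENSMUSG00000000901, chromosome 10, 75923222 to 75936496, minus strand), stromelysin 3, is activated inside the cell by furin and is best known from the stroma of carcinomas. The GL261 bulk tumors had 10.5, 3.16, 5.26 and 4.63 CPM and the CT2A bulk tumors 50.3, 53.1, 31.5 and 27.2 CPM. All CT2A tumors were higher, and the log2 fold change was 2.82 ± 0.47 (adjusted p = 0.00395). In sorted cells GL261 held 4.76, 4.01, 4.72 and 4.04 CPM and CT2A 78.5, 77.6 and 76.3 CPM, a separation far wider than the spread in either group. The log2 fold change of 4.09 ± 0.14 (adjusted p = 4.94e-07) had a standard error among the smallest of the members. Neurosphere-derived cells gave 2.67, 3.0 and 3.29 CPM in GL261 and 71.7, 90.3, 85.9, 70.9 and 86.7 CPM in CT2A, with a log2 fold change of 4.71 ± 0.17 (adjusted p = 4.00e-08), the largest of any member in that setting.

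Fibroblast markers moved with the line in the same direction as these 4 proteases. The 8 markers summed to 88.4 to 238 CPM in GL261 and 516 to 1618 CPM in CT2A bulk tumors, 77.1 to 146 and 794 to 1363 CPM in sorted cells, and 86.8 to 397 and 606 to 1107 CPM in neurosphere-derived cells. All 8 had reads in each of the 6 groups, and 5 of 8 were called higher in CT2A in bulk tumors, 6 in sorted and 4 in neurosphere-derived cells. Pericyte and smooth muscle markers summed to 126 to 182 CPM in GL261 and 318 to 443 CPM in CT2A bulk tumors. In sorted cells they summed to 333 to 474 and 685 to 830.1 CPM, and the lines were apart in both. In neurosphere-derived cells the sums were 346 to 434 and 234 to 794 CPM, where the ranges overlapped. The single markers of this list did not all go with the sum. In bulk tumors 4 of 8 were called higher in CT2A and 0 lower. In sorted cells 2 of 7 tested were higher and 1 lower, with a median log2 fold change of -0.53. In neurosphere-derived cells 2 of 7 tested were higher and 4 lower, with a median of -0.89. Some of these genes are also expressed by glioma cells themselves, and the part of such cells in the results was not tested. In bulk tumors fewer cells of a type and less RNA per cell cannot be told apart.

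Mmp13 (ENSMUSG00000050578, chromosome 9, 7272514 to 7283331, plus strand), collagenase 3, and Mmp3 (ENSMUSG00000043613, chromosome 9, 7445822 to 7455975, plus strand), stromelysin 1, lie on the same strand of the MMP cluster of chromosome 9, with 162.5 kb between the end of Mmp13 and the start of Mmp3. Their levels varied widely between libraries, and their promoters are shown because they alone of the 8 members with a promoter entry held both motifs searched. These were the AP-1 element TGACTCA, also read on the other strand as TGAGTCA, and TATAAA on the strand of the gene. The windows run from 250 bases before to 50 bases after the RefSeq start in GRCm38.p6, with both motifs in capitals.
Mmp3, chr9:7445572-7445871, plus strand: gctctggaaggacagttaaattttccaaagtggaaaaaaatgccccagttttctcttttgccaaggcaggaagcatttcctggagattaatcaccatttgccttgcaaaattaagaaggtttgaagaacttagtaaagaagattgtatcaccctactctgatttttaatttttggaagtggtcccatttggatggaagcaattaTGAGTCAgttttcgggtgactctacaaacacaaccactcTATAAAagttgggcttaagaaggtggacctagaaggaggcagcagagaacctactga
Mmp13, chr9:7272264-7272563, plus strand: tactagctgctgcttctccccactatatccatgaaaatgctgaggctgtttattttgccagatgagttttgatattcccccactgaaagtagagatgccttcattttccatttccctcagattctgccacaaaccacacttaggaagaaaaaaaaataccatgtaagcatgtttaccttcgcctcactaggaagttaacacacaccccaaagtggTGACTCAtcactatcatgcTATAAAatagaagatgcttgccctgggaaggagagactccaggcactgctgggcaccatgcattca
The AP-1 letters begin at position -46 in Mmp3 and -35 in Mmp13, and the TATAAA letters at -7 and -16, with no overlap between the motifs. Of 32851 promoters of this length, 5.20% held the AP-1 letters and 8.32% the TATAAA letters. The promoters of Mmp11, Mmp14 and the 4 Timp genes held neither, and Mmp2 and Mmp9 had no entry. A match of letters is a description of the window and was not tied to binding.

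Mmp13 degrades fibrillar collagens, type II above all. In bulk tumors GL261 held 24.6, 4.12, 11.7 and 23.1 CPM and CT2A 52.1, 54.6, 81.9 and 72.9 CPM. The CT2A tumors were all higher, and the log2 fold change was 2.06 ± 0.54 (adjusted p = 0.0264). This call was among the least stable, since it was lost without GL261 replicate 414, at 1.92 (adjusted p = 0.0785), and without each CT2A tumor in turn, at 2.10 (adjusted p = 0.0597) for replicate 39, 2.13 (adjusted p = 0.0529) for 40, 1.94 (adjusted p = 0.0624) for 47 and 2.01 (adjusted p = 0.0579) for 48. The adjusted p ranged from 4.57e-04 to 0.0785 over its 16 alternatives. In sorted cells GL261 spread over 2.27, 11.8, 29.3 and 39.3 CPM and enclosed the CT2A values of 17.2, 20.5 and 29.6 CPM, with a log2 fold change of 0.06 ± 0.72 (adjusted p = 0.952). In neurosphere-derived cells the order was the other way round, with 368, 391 and 228 CPM in GL261 and 37.2, 13.1, 8.56, 10.9 and 24.5 CPM in CT2A. All 3 GL261 libraries were far above all 5 of CT2A, and the log2 fold change was -4.17 ± 0.46 (adjusted p = 5.02e-05).

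Mmp3 cleaves proteoglycans, laminin and fibronectin and activates other proenzymes, proMMP9 among them. It was low in most libraries, with 1.63, 3.42, 10.3 and 11.8 CPM in GL261 and 1.58, 1.02, 6.06 and 3.05 CPM in CT2A bulk tumors, ranges that overlapped, with a log2 fold change of -1.15 ± 0.73 (adjusted p = 0.318). GL261 sorted cells held 0.216, 0, 0.248 and 0 CPM, which is 4 reads in 4 libraries, and the libraries without a read allow up to 0.282 CPM in replicate 84 and 0.300 CPM in replicate 82. CT2A sorted cells held 4.09, 4.04 and 0.541 CPM from 73 reads, each above the GL261 values. The ratio of pooled reads was 26.6 with an exact 95% interval of 9.97 to 100.4 that covers counting error only, and the fitted log2 fold change 4.53 ± 1.02 (adjusted p = 0.00605) depends on how counts near 0 are handled. Without CT2A replicate 69 or 70 the gene fell under the minimum count and was not tested. The neurosphere-derived GL261 libraries held 0.729, 0.115 and 23.1 CPM, of which replicate 91 alone was high, and CT2A held 4.16, 4.13, 1.15, 2.59 and 3.84 CPM. On the log2 scale the line difference there was -1.38 ± 1.09 (adjusted p = 0.3), and without replicate 91 it turned to 2.84 (adjusted p = 0.0159), with adjusted p from 0.0159 to 0.455 over its 13 alternatives.

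Timp2 (ENSMUSG00000017466, chromosome 11, 118301069 to 118355740, minus strand) inhibits most of these proteases and, bound to Mmp14, serves as the receptor for proMMP2. Sorted cells held 71.6, 64.4, 67.8 and 53 CPM in GL261 and 437, 440.3 and 449 CPM in CT2A. The groups were widely apart, and the log2 fold change was 2.73 ± 0.14 (adjusted p = 2.65e-06). Neurosphere-derived cells held 160.3, 139.6 and 214 CPM in GL261 and 388, 478, 638, 489 and 459.9 CPM in CT2A, with every CT2A library higher and a log2 fold change of 1.47 ± 0.20 (adjusted p = 1.28e-04). In bulk tumors the GL261 values of 116, 334, 153 and 133 CPM enclosed the CT2A values of 223, 267, 289.6 and 257 CPM with replicate 412 above the other GL261 tumors. The log2 fold change was 0.61 ± 0.28 (adjusted p = 0.159), and 0.98 (adjusted p = 0.00162) without replicate 412. It also passed with a transcript length offset (1.06, adjusted p = 0.0116) and in 1 fit of all 6 groups (0.63, adjusted p = 0.0487), with adjusted p from 0.00162 to 0.331 over its 16 alternatives.

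Timp1 (ENSMUSG00000001131, chromosome X, 20870166 to 20874735, plus strand) inhibits most secreted proteases, binds proMMP9 and is a poor inhibitor of Mmp14. Unlike the proteases called in both, it was lower in CT2A in sorted cells, at 99.3, 62.8, 65.2 and 68.6 CPM in GL261 against 24.3, 21 and 22.8 CPM in CT2A, without overlap and with a log2 fold change of -1.76 ± 0.19 (adjusted p = 1.32e-04). In neurosphere-derived cells it was at 66.9, 60.9 and 60.7 CPM in GL261 and 29.1, 21.6, 21.3, 21.1 and 19.8 CPM in CT2A, again apart, and the log2 fold change was -1.52 ± 0.14 (adjusted p = 1.34e-05). In bulk tumors GL261 had 149.9, 31.7, 66.6 and 84.9 CPM and CT2A 34.1, 38.7, 38.4 and 36.1 CPM. The GL261 tumors spread widely, replicate 405 high and replicate 412 below the CT2A tumors. The log2 fold change of -1.16 ± 0.45 (adjusted p = 0.102) did not pass, but -1.45 (adjusted p = 0.00882) without replicate 412 did, and without replicate 405 it was -0.63 (adjusted p = 0.207). It also passed with DESeq2 (-1.15, adjusted p = 0.0354), in 1 fit of all 6 groups (-1.06, adjusted p = 0.0077) and with neuron markers as a covariate (-0.78, adjusted p = 0.0393), with adjusted p from 0.0077 to 0.207 over its 16 alternatives. Replicates 405 and 412 were also the ends of the range of the neuron markers used as that covariate.

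Timp3 (ENSMUSG00000020044, chromosome 10, 86300372 to 86349506, plus strand), which is bound to the matrix and also inhibits ADAM proteases, did not pass the test between lines in any setting. In bulk tumors it stood at 74.1, 145, 97 and 105 CPM in GL261 and 51.9, 63.6, 92.3 and 91.7 CPM in CT2A, overlapping ranges with a log2 fold change of -0.40 ± 0.22 (adjusted p = 0.235). In sorted cells the log2 fold change was -0.12 ± 0.19 (adjusted p = 0.641) at 148 to 183 CPM in GL261 and 111 to 192 CPM in CT2A. In neurosphere-derived cells it was 0.03 ± 0.28 (adjusted p = 0.937) at 169.6 to 241 and 96.5 to 275 CPM. A missed threshold does not show equal levels.

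Timp4 (ENSMUSG00000030317, chromosome 6, 115241892 to 115252205, minus strand), the inhibitor with the narrowest tissue range, is known from brain, heart and muscle. In bulk tumors it was at 7.47, 25.8, 13.7 and 10.6 CPM in GL261 and 6.51, 6.6, 14 and 15.1 CPM in CT2A, with overlap and a log2 fold change of -0.34 ± 0.40 (adjusted p = 0.631). Sorted cells held 1.78 to 3.48 CPM in GL261 and 1.5 to 2.06 CPM in CT2A, with a log2 fold change of -0.60 ± 0.40 (adjusted p = 0.244). In neurosphere-derived cells GL261 held 1.7, 2.54 and 4.99 CPM and CT2A 0, 0, 0.229, 0.739 and 0.148 CPM, all 5 CT2A libraries being lower. That difference rested on 77 reads in GL261 and 12 in CT2A, a GL261 over CT2A ratio of 14.2 with an exact 95% counting interval of 7.71 to 28.8, and the fitted log2 fold change was -3.78 ± 0.86 (adjusted p = 0.00352). Without GL261 replicate 91 the gene fell under the minimum count. The CT2A libraries without a read, replicates 57 and 58, allow up to 0.245 and 0.234 CPM. Most marker lists moved in the same direction between these groups. Of the astrocyte list 7 of 8 were called lower in CT2A, of the endothelial list 8 of 10 and of the oligodendrocyte list 5 of 7 tested. The sums of these lists were 556 to 674, 216 to 283 and 502 to 585 CPM in GL261 and 103 to 373, 42.4 to 117 and 29.8 to 314 CPM in CT2A, all 8, 10 and 8 of these markers having reads in both groups. Also lower were 12 of 12 macrophage and microglia markers, 5 of 5 choroid plexus and 3 of 3 T and NK cell markers tested. Of all genes tested 29.6% were lower. Fibroblast markers went the other way, with 4 of 7 tested higher and 0 lower, and neuron, neutrophil and pericyte markers went both ways. The part of these cell types in the lower Timp4 was not tested.

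**Figure D3:**
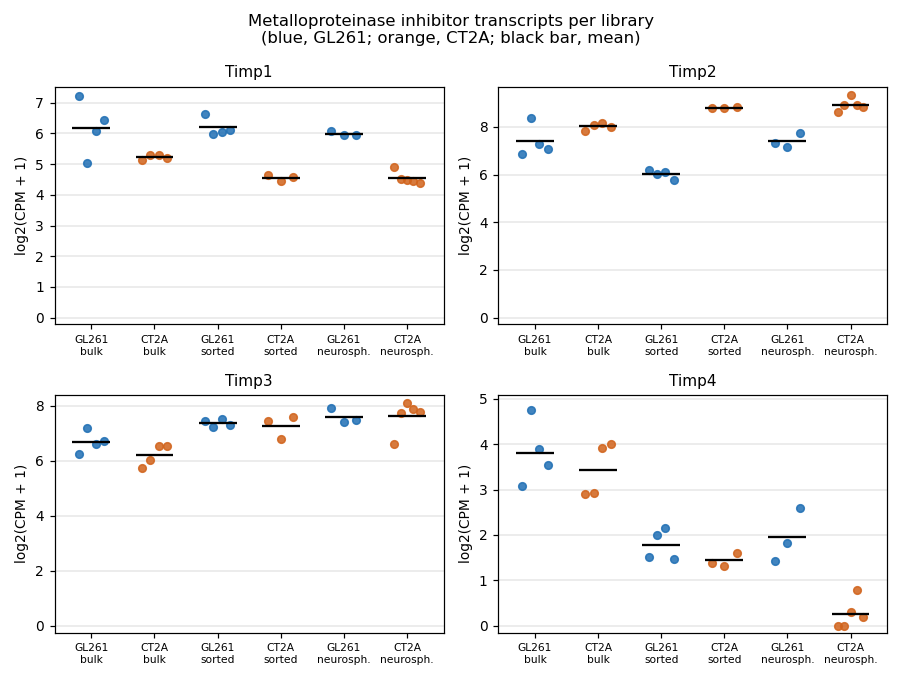
CPM of the 4 inhibitors as log2(CPM + 1), with 1 point per library and a bar at each group mean, for the 6 groups of 3 to 5 libraries. Timp1 is lower and Timp2 higher in CT2A than in GL261 among sorted and neurosphere-derived libraries, while Timp4 is highest in the bulk groups.

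The second question is whether culture as neurospheres went with other levels within a line, both groups being sorted. In GL261, 3 of the 9 members tested were higher in neurosphere-derived than in adherent-derived cells, Mmp13, Mmp14 and Timp2, and 0 were lower, where 7.58% of the 13675 genes tested were higher and 0.951% lower, 8.53% in all. Mmp9 was under the minimum count there. Mmp13 rose from 2.27, 11.8, 29.3 and 39.3 CPM to 368, 391 and 228 CPM, and every neurosphere-derived library was several times the highest adherent one. Its log2 fold change was 4.02 ± 0.75 (adjusted p = 0.0163), or 3.92 (adjusted p = 0.0715) without neurosphere-derived replicate 89 and 3.87 (adjusted p = 0.0568) without replicate 90, with adjusted p from 1.28e-04 to 0.0715 over its 13 alternatives. Mmp14 lay at 57.8 to 83.2 CPM in adherent-derived and at 247 to 455 CPM in neurosphere-derived cells, with a log2 fold change of 2.29 ± 0.24 (adjusted p = 0.00305). Timp2 rose likewise without overlap, at 53 to 71.6 CPM in adherent-derived and 139.6 to 214 CPM in neurosphere-derived cells, with a log2 fold change of 1.45 ± 0.18 (adjusted p = 0.00499). Mmp3 had a fitted log2 fold change of 6.06 ± 1.74 (adjusted p = 0.0743), with replicate 91 alone high, and it passed in 1 fit of all 6 groups (6.07, adjusted p = 0.00621), with adjusted p from 0.00621 to 0.189 over its 10 alternatives. The median of the members was 0.31 on the log2 scale beside -0.03 for all genes.

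In CT2A, 0 of the 9 members tested passed between neurosphere-derived and adherent-derived cells in edgeR, 0 had an unadjusted p under 0.05 and DESeq2 called 0, where 0.0533% of the 13142 genes tested were higher and 0.114% lower, 0.167% in all. Timp4 was under the minimum count and was not tested. It had 45 reads in adherent-derived and 12 in neurosphere-derived CT2A cells, a ratio at equal depth of 8.05 with an exact 95% counting interval of 4.19 to 16.7, and the 3 adherent-derived libraries were all above the 5 neurosphere-derived ones. Among the tested members the lowest adjusted p was 0.423, for Mmp9 at a log2 fold change of -0.71, and the values lay between that and 0.35 for Timp3. Simulated 2-fold changes were recovered for 51% of genes in this comparison, so changes of that size could be missed. That simulation changed 200 genes drawn from all levels, whereas 22 genes were called in the data. Its rate therefore need not hold for the members, whose standard errors ran from 0.11 for Mmp11 to 0.61 for Mmp3. The difference between the lines itself changed with culture for 3 of 10 members, where 5.7% of the 13824 genes tested were lower and 0.969% higher, 6.67% in all. CT2A over GL261 in neurosphere-derived cells minus that in adherent-derived cells was -4.28 ± 0.88 (adjusted p = 0.0134) for Mmp13, -2.16 ± 0.26 (adjusted p = 0.00112) for Mmp14 and -1.30 ± 0.24 (adjusted p = 0.00899) for Timp2 on the log2 scale. For Mmp3 it was -5.96 ± 1.80 (adjusted p = 0.0633), for Timp4 -3.22 ± 0.99 (adjusted p = 0.0671) and for Mmp11 0.58 ± 0.19 (adjusted p = 0.0843). Mmp3 passed without GL261 neurosphere-derived replicate 90, at -6.46 (adjusted p = 0.0397), and was -1.75 (adjusted p = 0.536) without replicate 91, with adjusted p from 0.0397 to 0.536 over its 20 alternatives. Timp4 passed without CT2A neurosphere-derived replicate 60, at -4.40 (adjusted p = 0.0134), with adjusted p from 0.0112 to 0.392 over its 21 alternatives. With a transcript length offset Timp4 was -2.0 (adjusted p = 0.392), and Mmp11 passed at 0.88 (adjusted p = 0.03), with adjusted p from 0.03 to 0.421 over its 21 alternatives.

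Macrophage and microglia markers moved with these members. The 12 markers summed to 195 to 1062 CPM in GL261 sorted cells and 4804 to 7800.0 CPM in GL261 neurosphere-derived cells, and 10 of the 12 were called higher in the latter. All 12 had a mean above 1 CPM in each of the 6 groups, and in CT2A they summed to 753 to 1456 CPM in sorted and 545 to 2585 CPM in neurosphere-derived cells. All 12 were called lower in CT2A than in GL261 neurosphere-derived cells. Choroid plexus markers summed to 16.9 to 78.8 CPM in sorted and 276 to 413 CPM in neurosphere-derived GL261 cells. Their part in the rise of Mmp13, Mmp14 and Timp2 was not tested.

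**Figure D4:**
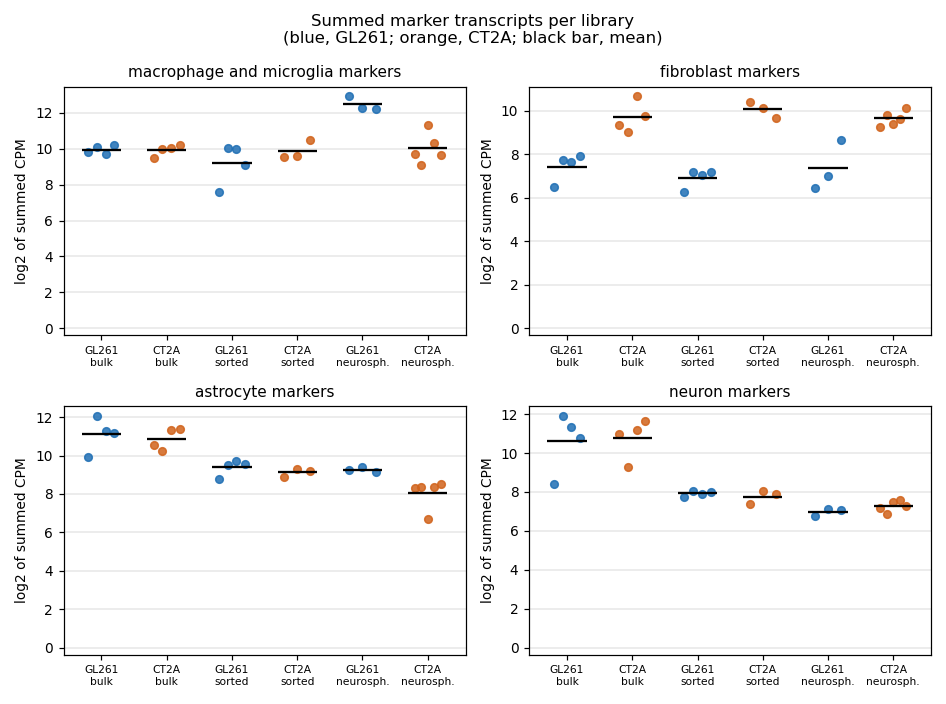
Summed CPM of marker lists of other cell types in each library on the log2 scale, with 1 point per library and a bar at each group mean for the 6 groups. The macrophage and microglia sum is highest in the 3 GL261 neurosphere-derived libraries, and the neuron and astrocyte sums are highest in bulk tumors.

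The third comparison sets whole tumors against bead-selected cells of the same line. Subline, number of implanted cells, dissociation, selection, read length and sequencer differ with it and cannot be told apart. In GL261, Mmp3, Timp2 and Timp4 were higher in bulk tumors and Mmp2, Mmp14 and Timp3 lower, 3 and 3 of 10 members, where 20.1% of 16265 genes were higher and 14.4% lower, 34.5% in all. In CT2A, Mmp9, Mmp13, Timp1 and Timp4 were higher and Mmp2, Mmp11, Mmp14, Timp2 and Timp3 lower, 4 and 5 of 10, where 26.9% and 23% of 14701 genes were called, 49.9% in all. The medians of the members were 0.19 and -0.29, beside 0.01 and 0.00 for all genes.

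Mmp2, Mmp14 and Timp3 were lower in bulk tumors, and Timp4 was higher, in both lines. The share of all genes called alike in both lines was not counted. Mmp2 changed by -1.35 ± 0.30 (adjusted p = 0.00932) in GL261 and -0.66 ± 0.12 (adjusted p = 0.00268) in CT2A on the log2 scale, bulk over sorted. Mmp14 changed by -1.19 ± 0.15 (adjusted p = 8.61e-04) in CT2A and -0.69 ± 0.20 (adjusted p = 0.0286) in GL261, where several libraries decided the call. Without bulk replicates 412, 414 and 417 in turn the GL261 value of Mmp14 was -0.54 (adjusted p = 0.0547), -0.63 (adjusted p = 0.0872) and -0.75 (adjusted p = 0.051). Without sorted replicate 82 or 83 it was -0.65 (adjusted p = 0.072) or -0.61 (adjusted p = 0.0768), with adjusted p from 0.0034 to 0.0872 over its 15 alternatives. Timp3 changed by -1.02 ± 0.25 (adjusted p = 0.0112) in CT2A and -0.77 ± 0.20 (adjusted p = 0.0163) in GL261, the latter -0.69 (adjusted p = 0.07) without bulk replicate 414, with adjusted p from 0.00541 to 0.07 over its 15 alternatives. Timp4 was higher in bulk tumors by 2.39 ± 0.44 (adjusted p = 0.00452) in GL261 and 2.66 ± 0.41 (adjusted p = 0.00156) in CT2A.

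Timp2 moved in opposite directions, being higher in GL261 bulk tumors at 1.39 ± 0.32 (adjusted p = 0.0106) and lower in CT2A at -0.71 ± 0.11 (adjusted p = 0.00132). With a transcript length offset the GL261 value was 0.67, adjusted p = 0.0732, with adjusted p from 9.52e-05 to 0.0732 over its 15 alternatives. In CT2A, Mmp9 was higher in bulk by 1.43 ± 0.27 (adjusted p = 0.00346), Mmp13 by 1.60 ± 0.23 (adjusted p = 0.00126) and Timp1 by 0.75 ± 0.10 (adjusted p = 0.00101), while Mmp11 was lower at -0.88 ± 0.24 (adjusted p = 0.0161). In 1 fit of all 6 groups Mmp13 lost its CT2A call, at 1.59, adjusted p = 0.067, with adjusted p from 1.93e-09 to 0.067 over its 14 alternatives. Timp1 lost it there at 0.75, adjusted p = 0.0731, with adjusted p from 2.71e-08 to 0.0731 over its 14 alternatives, and Mmp2 at -0.67, adjusted p = 0.0532, with adjusted p from 1.42e-05 to 0.0532 over its 14 alternatives. Mmp11 lost its call without CT2A sorted replicate 70, at -0.87 (adjusted p = 0.0522), with adjusted p from 0.00223 to 0.0522 over its 14 alternatives. Mmp3 in GL261 went from 4 reads in sorted cells to 1052 in the deeper bulk libraries, a ratio at equal depth of 62.6 with a 95% counting interval of 24.4 to 230.2, and a fitted log2 fold change of 5.80 ± 1.04 (adjusted p = 0.00407).

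Whether the lines differed by unlike amounts in whole tumors and sorted cells was tested with an interaction term. It passed for Mmp3 and Timp2, 2 of 10 members and both lower, where 13.5% of the 15845 genes tested passed, 5.8% higher and 7.67% lower. CT2A over GL261 in bulk minus that in sorted cells was -5.88 ± 1.37 (adjusted p = 0.0116) for Mmp3 and -2.27 ± 0.37 (adjusted p = 0.00133) for Timp2 on the log2 scale. For Mmp11 it was -1.35 ± 0.48 (adjusted p = 0.0778) and for Mmp14 -0.65 ± 0.27 (adjusted p = 0.134). Without GL261 bulk replicate 412 these became -1.57 (adjusted p = 0.0233) and -0.78 (adjusted p = 0.0436), and without replicate 405 Mmp11 was -0.82 and not called, with adjusted p from 0.0233 to 0.172 over its 22 alternatives for Mmp11 and from 0.0436 to 0.357 over its 22 alternatives for Mmp14.

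Brain cell markers moved with the bulk samples. Astrocyte markers summed to 974 to 4291 CPM in GL261 bulk tumors and 436 to 836 CPM in sorted cells, and neuron markers to 335 to 3871 and 216 to 267 CPM. In CT2A the astrocyte sums were 1195 to 2626 and 472 to 637 CPM and the neuron sums 613 to 3216 and 167 to 262 CPM. Their part in the levels of Timp2, Timp4 and the other members was not tested. Timp1, Timp3 and Timp4 each lie inside a synapsin gene, Syn1, Syn3 and Syn2, and all 3 synapsin genes were higher in bulk than in sorted cells of both lines, Syn3 by 7.26 in GL261 and 8.53 in CT2A on the log2 scale. Of the exon bases of Timp3, 1733 of 8144 are also exon of Syn3 on the opposite strand, as are 90 of 5894 of Timp4 with Syn2, while Timp1 shares 0 with Syn1. The bulk library kit is not stated to keep strand, so Timp3 and Timp4 levels in bulk tumors are uncertain by whatever reads come from these shared bases.

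For these members, the balance of inhibitors to proteases was described in each library. It was the summed TPM of the 4 Timp genes over that of the 6 Mmp genes. The other 17 Mmp genes, counted below, are not part of it. Among those tested, their median log2 fold change, CT2A over GL261, was -0.25 in bulk tumors, -0.89 in sorted and -3.05 in neurosphere-derived cells. GL261 bulk tumors had ratios of 6.12, 5.8, 3.75 and 3.26, a mean of 4.73 ± 1.44 (SD, n = 4), and CT2A bulk tumors 0.995, 0.962, 1.2 and 1.27, a mean of 1.11 ± 0.151 (n = 4). The lowest GL261 tumor was above the highest CT2A tumor. Sorted cells had 3.02, 2.3, 2.45 and 2.01 in GL261 and 0.906, 0.891 and 0.800 in CT2A, means of 2.45 ± 0.422 (n = 4) and 0.866 ± 0.0576 (n = 3), again apart. Neurosphere-derived cells had 0.670, 0.666 and 1.04 in GL261 and 0.875, 0.819, 1.0, 0.949 and 0.777 in CT2A, means of 0.793 ± 0.216 (n = 3) and 0.885 ± 0.0926 (n = 5), which overlapped.

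The sum of these 6 proteases varied more between the groups than that of the inhibitors. The 6 proteases summed to 81 ± 22 TPM in GL261 and 319.7 ± 39 TPM in CT2A bulk tumors, 115 ± 15 and 474 ± 41.6 TPM in sorted cells, and 450.2 ± 57.6 and 473 ± 62.3 TPM in neurosphere-derived cells. The inhibitors summed to between 276 and 419 TPM as group means. In GL261 neurosphere-derived cells Mmp13 made up 42 ± 6.55% of the protease sum, against 10.6 ± 8.04% in GL261 sorted cells. The inhibitor sums were of different make-up, Timp1 being 60.4 ± 5.25% of it in GL261 and 12.7 ± 0.677% in CT2A sorted cells.

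**Figure D5:**
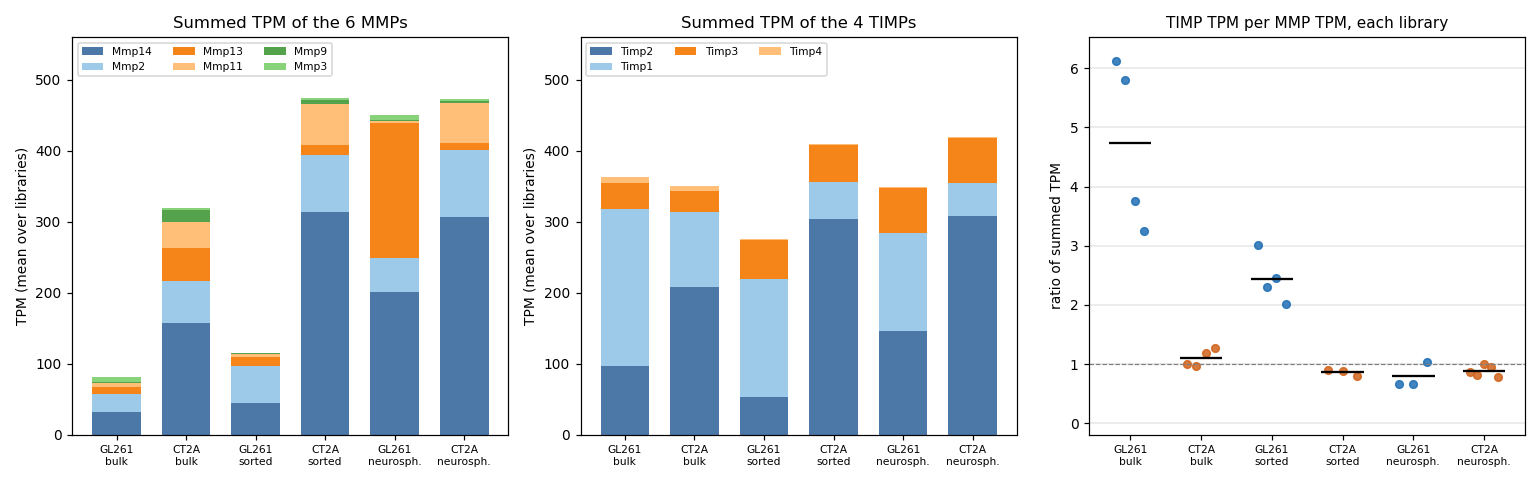
Stacked bars give the mean TPM of each protease and of each inhibitor by group, and points give the summed TPM of the 4 inhibitors over that of the 6 proteases in each library, with a bar at each group mean. The 4 GL261 bulk tumors sit highest, and the CT2A groups and GL261 neurosphere-derived cells lie near 1.

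The other 17 matrix metalloproteinase genes were counted in the same comparisons, to be read against the shares of all genes tested. In bulk tumors 11 had enough reads, 0 were higher in CT2A and 2 lower, Mmp15 (-2.50, adjusted p = 0.00118) and Mmp16 (-1.27, adjusted p = 0.00335), both membrane types, with a list median of -0.25 on the log2 scale, where 11.4% of all genes were higher and 11.9% lower. In sorted cells 3 of 10 were higher and 3 lower, among them Mmp10 (4.39), stromelysin 2, and Mmp17 (-5.45), a membrane type with a lipid anchor, with a median of -0.89, where 24% of all genes were higher and 26.8% lower. In neurosphere-derived cells 2 of 10 were higher, Mmp28 (1.4) and Mmp10 (2.47), and 7 lower, Mmp17 (-5.33) and Mmp15 (-3.51) among them, with a median of -3.05, where 30% of all genes were higher and 29.6% lower. In GL261, 4 of the 8 tested were higher in neurosphere-derived than in adherent-derived cells and 0 lower, including Mmp12 (2.98, adjusted p = 0.0187), the macrophage elastase, and Mmp19 (1.85, adjusted p = 0.0131), with a median of 1.09, where 7.58% of all genes were higher and 0.951% lower.

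Of 19 genes for activators, other inhibitors and clearance receptors, 18 were tested in bulk tumors, where 6 were higher in CT2A and 0 lower, beside 11.4% and 11.9% of all genes. They included Furin (1.89, adjusted p = 6.87e-04), the convertase that activates Mmp11 and Mmp14, Plau (2.26, adjusted p = 0.00213), the urokinase that makes plasmin, and Thbs1 (3.40, adjusted p = 3.05e-04), thrombospondin 1, and the list median was 0.53. In sorted cells 10 of 17 were higher, with Thbs2 at 4.21 and Plau at 2.78, and 2 lower, Pcolce (-1.37), a procollagen proteinase enhancer, and Bsg (-0.95), the protease inducer basigin, beside 24% and 26.8% of all genes. In neurosphere-derived cells 5 of 17 were higher and 2 lower, the latter A2m (-4.88), the broad protease inhibitor alpha-2-macroglobulin, and Bsg (-0.56), beside 30% and 29.6% of all genes. In GL261, 4 of 17 were higher in neurosphere-derived than in adherent-derived cells and 0 lower, including Plaur (1.83, adjusted p = 0.00284), the urokinase receptor, and Plau (2.95, adjusted p = 0.00958), beside 7.58% and 0.951% of all genes. The list medians were 0.84, 0.07 and 0.86 in these 3 comparisons.

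For the 5 members whose group means spanned more than 3 on the log2 scale, the genes with the most similar course over the 23 libraries were found among 15466 genes, by the root mean square difference of log2(CPM + 1) values after each gene was centred on its own mean. Nearest to Mmp11 were Shox2 (0.238), Sdc1 (0.357) and Ndufaf2 (0.375). Nearest to Timp4 were Tmc7 (0.400), Rfx4 (0.409) and 2810459M11Rik (0.411), and nearest to Mmp14 were Sh3pxd2b (0.416), Furin (0.515) and Vcam1 (0.517). Il1rl1 (0.473), Ctsk (0.656) and Ibsp (0.662) were nearest to Mmp9. Mmp13 had no close neighbour, its nearest being Il1rn (0.864), Fgr (0.899) and Cd244a (0.904). The libraries share line, sort and depth differences, so such a likeness is a description only.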

How the data were processed

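RNA from 23 libraries in 6 groups was sequenced, with paired 150-base reads for bulk tumors and paired 37-base reads for sorted cells. The authors quantified transcripts with Salmon against mouse GRCm38, and the deposited tables hold estimated counts and TPM per transcript. For bulk and adherent-derived sorted libraries the authors also deposited RSEM 1.3.3 expected counts from STAR 2.7.7a alignments, used here only as an alternative. The sample labels name 1 library kit for all libraries, whereas the study's methods name a strand-specific kit for sorted cells. The submitters' processing notes also name DESeq2 1.30.1.

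Estimated counts of 116546 transcripts were summed to 35576 genes and rounded. Transcripts without a gene name, 180 in number, held 0.0413 to 0.152% of reads and were left out. CPM were scaled by TMM factors over all libraries, and TPM were summed per gene. Each of the 9 comparisons was fitted with edgeR 4.0.16 (R 4.3.3), by the robust quasi-likelihood test, over all genes with a mean normalized count above 10, with Benjamini-Hochberg adjustment over all of them and a threshold of 0.05. Standard errors are the log2 fold change over the root of the test's F. No 2 replicates agreed within sampling noise. The labels number the samples of a group but do not say that they came from separate animals. The study's figure legends count bulk tumors and sorted cells in mice. Its main text gives no such count for neurosphere-derived cells. The p-values measure only the spread between these samples, which may be technical where no mice are counted. Every member was described, and of other gene lists up to 3 higher and 3 lower genes with the smallest p. The members and lists were chosen with earlier results of these data known. Alternatives were DESeq2 1.42.0, its size factors, no minimum count, the filter of edgeR, a transcript length offset, RSEM counts, all groups in 1 fit, neuron markers as a covariate and each library left out. The fits were tested on simulated data with 200 changed genes. Intervals and floors of 3 counts cover counting error only. Promoters and positions are from RefSeq GRCm38.p6 and the annotation of GRCm38, and 8 of 10 members matched a promoter. Some items named in the labels or gene lists are not reported here. Figures were drawn with matplotlib 3.10.9.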

Additional observations from a re-analysis of the deposited data

Results flagged for a closer look

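In the 40 combinations of a member with a group of 4 or 5 libraries, 2 values stood far from the rest of their group by Dixon's ratio, and chance alone marks about 5% of such groups. Both came from CT2A neurosphere-derived replicate 57. Timp1 was at 29.1 CPM there, where the other 4 libraries held 19.8 to 21.6 CPM (ratio 0.770 against a critical value of 0.71). Timp3 was at 96.5 CPM, below the 209.9 to 275 CPM of the others (ratio 0.742).

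In 5 cases the difference between the lines itself differed with the setting, by an interaction term in edgeR. CT2A over GL261 in bulk tumors minus that in sorted cells was -5.88 (SE 1.37, adjusted p = 0.0116) for Mmp3 and -2.27 (SE 0.37, adjusted p = 0.00133) for Timp2 on the log2 scale. The Mmp3 value rests on 4 reads in GL261 sorted cells. In neurosphere-derived minus adherent-derived cells it was -4.28 (SE 0.88, adjusted p = 0.0134) for Mmp13, -2.16 (SE 0.26, adjusted p = 0.00112) for Mmp14 and -1.30 (SE 0.24, adjusted p = 0.00899) for Timp2. The bulk and sorted libraries differ in read length, and macrophage and microglia markers in the GL261 neurosphere-derived libraries summed to 4804 to 7800 CPM. The part of either was not tested.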

How the results depend on the processing

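No paired analysis was possible because the groups compared share no replicate numbers. Of the 43 member results that were called, 31 were called under every alternative in which they were tested, and 0 changed direction. Of these 31, Mmp3 between lines in sorted cells was under the minimum count without CT2A replicate 69 or 70, and Timp4 in neurosphere-derived cells without GL261 replicate 91. The count of members called in bulk tumors between lines ran from 3 to 7 with 1 library left out, and in the bulk minus sorted difference from 2 to 4. In 1 fit of all 6 groups 5 members were called in the neurosphere-derived minus adherent-derived difference. Without Timp2 and Mmp14, the members of each family with the highest TPM over all libraries, the TIMP per MMP ratio was 0.872 in CT2A bulk, 0.667 in CT2A neurosphere-derived, 0.653 in CT2A sorted and 3.32 in GL261 sorted libraries. The causes were not tested.

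Results that were not called in the main fit, and that crossed 0 under an alternative, were the following on the log2 scale. With RSEM expected counts these were Mmp13 between lines in sorted cells (-0.0067), Mmp3 between bulk and sorted CT2A (-0.0066) and Mmp9 in the bulk minus sorted difference (-0.10, or -0.043 with no minimum count). Timp3 between lines in neurosphere-derived cells became -0.0065 with DESeq2, -0.0065 with its size factors and -0.018 with a length offset, which also took Timp4 between GL261 cultures to -0.34. With 1 library left out, the line difference ran from -0.55 to 0.021 for Timp4 in bulk tumors, from -0.32 to 0.57 for Mmp13 and -0.26 to 0.088 for Timp3 in sorted cells, and from -1.97 to 2.84 for Mmp3 and -0.089 to 0.21 for Timp3 in neurosphere-derived cells. The value of 2.84 for Mmp3, without GL261 replicate 91, was called in edgeR (adjusted p = 0.0159). Between GL261 cultures Mmp2 ran from -0.28 to 0.16 and Timp4 from -0.21 to 0.59. Between CT2A cultures Mmp3 ran from -0.41 to 0.43, Mmp11 from -0.017 to 0.073 and Timp1 from -0.15 to 0.015. Between bulk and sorted libraries the ranges were -0.092 to 0.56 for Mmp11, -0.86 to 0.040 for Mmp13 and -0.36 to 0.37 for Timp1 in GL261, and -0.55 to 0.40 for Mmp3 in CT2A. In the bulk minus sorted difference they were -0.36 to 0.63 for Mmp9 and -0.10 to 0.53 for Timp4, and in the neurosphere-derived minus adherent-derived difference -0.10 to 0.37 for Timp3.

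Spread between libraries and low counts limit what could be seen. In simulations of bulk tumors between lines 3.1% of genes changed 2-fold and 57.1% of those changed 4-fold were recovered, against 42.7% and 88.5% in sorted cells. Mmp3, Mmp9 and Timp4 in sorted cells rest on few reads.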

Other observations

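Related protease families that share inhibitors with the matrix metalloproteinases were also counted. Of 9 ADAM genes, membrane proteases that shed receptors and ligands and some of which Timp3 inhibits, 4 of the 7 tested were higher in neurosphere-derived than in adherent-derived GL261 cells and 0 lower. They included Adam8 at 3.68, Adam15 at 0.94 and Adam10 at 0.84 on the log2 scale, and the list median was 0.84. Of all genes tested there 7.58% were higher and 0.951% lower. Between the lines 2 of 9 were higher in CT2A and 1 lower in bulk tumors, 4 of 7 higher and 2 lower in sorted cells, and 2 of 7 higher and 4 lower in neurosphere-derived cells. The shares of all genes higher and lower in CT2A were 11.4% and 11.9% in bulk tumors, 24% and 26.8% in sorted and 30% and 29.6% in neurosphere-derived cells.

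Of 19 ADAMTS genes, secreted proteases of the matrix, 18 were tested in bulk tumors, with 6 higher in CT2A and 2 lower. Adamts7 was among the former (3.54, adjusted p = 6.35e-04), and Adamts1 (-2.46, adjusted p = 8.13e-04) and Adamts20 (-2.31, adjusted p = 0.00261) were the latter. In sorted cells 7 of 13 were higher and 3 lower, and in neurosphere-derived cells 8 of 13 were higher, with Adamts7 at 4.52, and 3 lower, to be read against the same shares of all genes. The list medians were 0.31, 0.88 and 1.26.

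The share of Timp2 reads assigned to the transcript Timp2-202 went from 2.35% in GL261 bulk tumors to 18.2% in GL261 neurosphere-derived cells. The groups at the ends of that range were read at different lengths. In CT2A the share was 9.36% in bulk tumors, 10.3% in sorted and 10.8% in neurosphere-derived cells, which were also read at different lengths. Shares are of reads pooled over a group, and replicate 412 gave the most Timp2 reads in GL261 bulk tumors (14164). The part of read length was not tested.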
